A study of Mus musculus with 2 samples.

Results

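The 6 miRNA genes embedded in the mouse Hox clusters were Mir196b in Hox A, Mir196a-1 and Mir10a in Hox B, Mir196a-2 and Mir615 in Hox C, and Mir10b in Hox D. They were taken by gene symbol from GENCODE M21, out of 2202 miRNA gene rows, and all 6 had counts in both libraries. Counts came from microRNA sequencing of gastrocnemius, a calf muscle of the hindlimb, of male B6CASTF1/J mice aged 25 days. B6CASTF1/J is an F1 hybrid of a C57BL/6 and a wild-derived CAST parent, and no treatment, transgene or mutation is named. The design has 1 group of 2 libraries, replicates 1 and 2, and so no treated or control samples. The labels number different males but give both a single donor identifier, so the SDs below may be technical. The p-values compare only these 2 libraries with each other.

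Hox clusters are rows of transcription factor genes that are switched on in order along the body axis and keep a record of position in adult limb and trunk tissue. The miRNAs between them are transcribed in the same direction as the Hox genes and act after transcription, with miR-196 known in mouse to direct cleavage of the Hoxb8 mRNA. MiR-10 lies beside the paralog 4 genes, miR-196 beside the paralog 9 genes and miR-615 within Hoxc5. A miRNA recognises its targets mainly through its seed, bases 2 to 8 from the 5′ end.

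The mature sequences show how the 6 genes fall into families. The main arm of each is given here 5′ to 3′ from RefSeq (GRCm38.p6, the same assembly as mm10), with the seed in capitals.
miR-196b-5p: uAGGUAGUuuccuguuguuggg
miR-196a-5p: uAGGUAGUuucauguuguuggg
miR-10a-5p: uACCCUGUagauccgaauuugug
miR-10b-5p: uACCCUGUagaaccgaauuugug
miR-615-3p: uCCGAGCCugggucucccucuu
MiR-10a-5p and miR-10b-5p share the seed ACCCUGU and miR-196a-5p and miR-196b-5p the seed AGGUAGU. Among 1679 mature mouse names in the RefSeq table, no other carried either seed, and none shared the seed of miR-615-3p. Within each of the paired families a single base differs, counted from 1 at the 5′ end: U12A between miR-10a-5p and miR-10b-5p, and A12C between miR-196a-5p and miR-196b-5p. Both differences lie at position 12, outside the seed. The opposite arms have unlike seeds, and miR-10a-3p differs from miR-10b-3p by A3G, U9A and A10U.

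The hairpins of the miR-10 genes are shown because the counts pool both arms of each. Capitals mark the 5p and 3p mature sequences.
Mir10a: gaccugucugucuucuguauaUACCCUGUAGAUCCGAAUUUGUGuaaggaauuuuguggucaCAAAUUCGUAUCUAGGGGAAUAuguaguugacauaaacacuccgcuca
Mir10b: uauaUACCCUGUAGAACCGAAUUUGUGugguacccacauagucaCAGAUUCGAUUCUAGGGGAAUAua
The longest run of bases that these hairpins share is 15, shorter than a mature miRNA, so a full-length read of either gene crosses a base that tells them apart. Mir196b shares at most 12 bases with any other annotated miRNA gene and Mir615 at most 14.

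Mir196a-1 and Mir196a-2 differ from the rest because they encode 1 identical mature miRNA. The shared stretch is shown in capitals with 12 bases of each hairpin on either side.
Mir196a-1: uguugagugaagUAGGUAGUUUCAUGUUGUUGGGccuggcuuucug
Mir196a-2: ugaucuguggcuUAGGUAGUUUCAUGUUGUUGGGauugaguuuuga
The 22 shared bases are exactly miR-196a-5p, preceded by G and followed by C in Mir196a-1, and preceded by U and followed by A in Mir196a-2. A read made of the shared bases alone aligns at both loci. Multi-mapped reads are kept apart from the gene rows in these files, so either row can hold only reads that run past the shared bases or come from the 3p arm. How many miR-196a reads were left out was not analysed here.

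The known target of miR-196 lies in the same Hox B cluster as Mir196a-1. In the 3′ untranslated region of Hoxb8, a stretch beginning at base 418 of 845 pairs with 21 of the 22 bases of miR-196a-5p.
Hoxb8 site: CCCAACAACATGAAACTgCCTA
Capitals mark Watson-Crick pairs and the lower-case base is a G:U wobble opposite position 5 of the miRNA. The best ungapped site of any other Hox gene, in Hoxd8, has 15 such pairs. The target mRNAs were not measured, so nothing here bears on whether they were repressed.

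By position the members keep to the same places in different clusters. In mm10, Mir196b lies at chromosome 6, 52230081 to 52230165 on the minus strand, in exons of non-coding Hoxa9 transcripts and an intron of another. Mir196a-1 (chromosome 11, 96265164 to 96265265) and Mir10a (chromosome 11, 96317165 to 96317274) lie between genes on the plus strand. Mir196a-2 (chromosome 15, 102973350 to 102973434) is in an intron of a long non-coding Hoxc5 transcript and Mir615 (chromosome 15, 103014910 to 103015001) in an intron of the coding Hoxc5 transcript, both on the plus strand. Mir10b (chromosome 2, 74726070 to 74726137, plus strand) is in introns of coding transcripts of Hoxd3 and Hoxd4. The next Hox coding start downstream of each miR-10 gene is a paralog 4 gene, 1496 bases from Mir10a to Hoxb4 and 1142 bases from Mir10b to Hoxd4. Downstream of each miR-196 gene it is a paralog 9 gene, at 3977 bases for Mir196b, 6277 for Mir196a-1 and 8219 for Mir196a-2. Within 20 kb of the 4 clusters, which hold 39 Hox genes, the annotation has 7 miRNA genes. The only one that is no member, Gm44463 in Hox D on the minus strand, had 0 counts in both libraries, an upper limit of 2.01 CPM in the first library and of 1.48 CPM in the second.

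**Figure D1:**
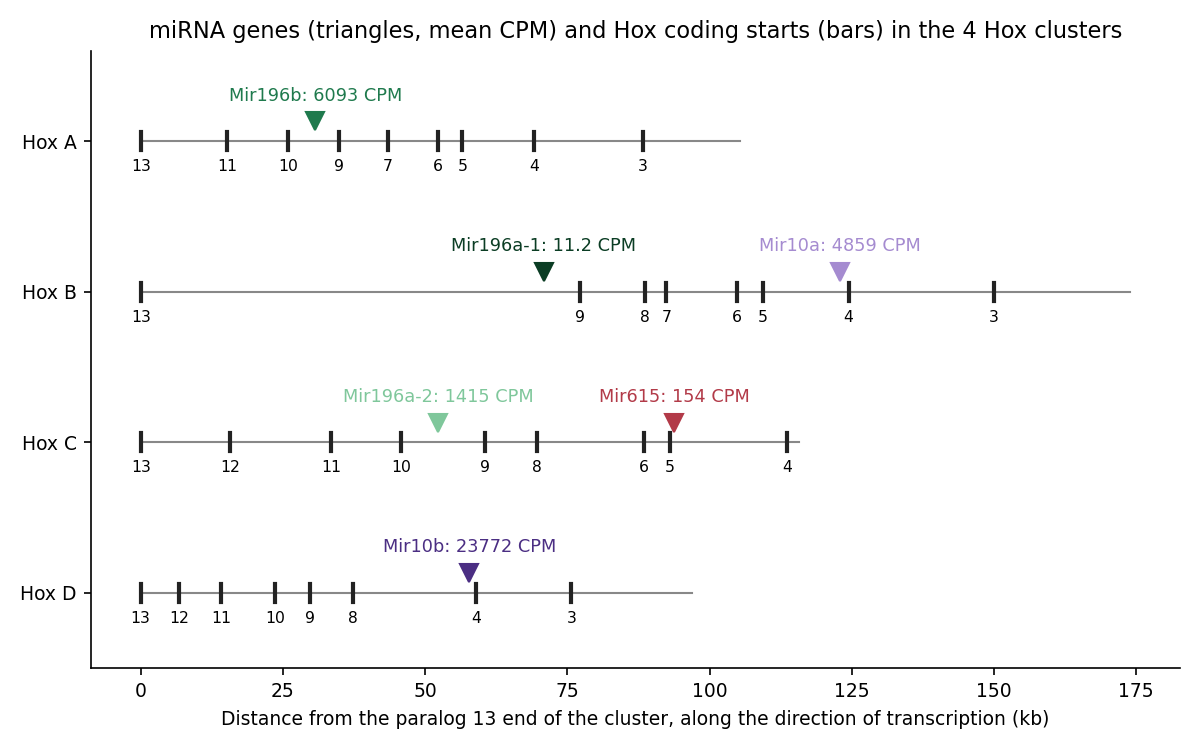
Hox clusters A to D drawn to scale, with distance in kb from the paralog 13 end on the x axis, bars at the coding starts of the Hox genes of paralog groups 3 to 13 (numbered by group) and triangles at the miRNA genes with their mean CPM over 2 libraries. MiR-196 genes stand just before paralog 9 and miR-10 genes just before paralog 4, with means from 11.2 CPM for Mir196a-1 to 23772 CPM for Mir10b.

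The libraries held 1491341 gene counts in replicate 1 and 2028332 in replicate 2, which were 19.9% and 20.6% of all reads. Multi-mapped reads were the largest class, with 69.8% in replicate 1 and 71.8% in replicate 2. Levels are given as CPM, a gene's counts scaled to the library's gene counts. Multi-mapped reads are in no gene row, so levels, ranks and shares of gene counts leave them out. How far this moved the ranks was not tested. All 9 striated muscle miRNA genes had counts in both libraries, with 55093 and 48416 CPM together, nearly all from Mir206. In replicates 1 and 2, Mir1a-1 had 15 and 23 counts, Mir133a-1 18 and 43, Mir133b 18 and 41, and Mir133a-2 1 and 8. Mir486, Mir1a-2, Mir499 and Mir208b had more, from 136 to 1227 counts in replicate 1. By these counts, which leave out multi-mapped reads, the match of the labelled tissue to its markers thus rests mainly on Mir206. Whether paired loci such as Mir1a-1 and Mir1a-2, or Mir133a-1 and Mir133a-2, lack reads that align to both was not analysed. Of the 6 neuronal Mir9 and Mir124a genes, 5 had no count in either library. The hepatic Mir122 had 20 and 23 counts, near those of Mir1a-1. Intervals are exact 95% Clopper-Pearson intervals for counting error alone. They take each read as a separate draw, so any copies made by PCR make them too narrow.

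Together the 6 genes held 3.85% of gene counts in replicate 1 (3.82 to 3.88) and 3.41% in replicate 2 (3.38 to 3.43), or 3.63 ± 0.315% (SD, n = 2). From Mir10b down to Mir196a-1 their counts spanned 1768-fold in replicate 1 and 2703-fold in replicate 2, and their order was the same in both libraries. The samples are bulk muscle, in which fewer cells of a type and less RNA per cell cannot be told apart.

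In Hox A, Mir196b had 10620 counts in replicate 1 and 10272 in replicate 2, which is 7121 CPM (6987 to 7257) and 5064 CPM (4967 to 5163). By mean CPM it came second among the members, though not beyond the SD of its ratio to Mir10a. Among all miRNA genes it ranked 26 in replicate 1 and 31 in replicate 2. Replicate 1 was the high library, and the intervals did not overlap. Its mean of 6093 ± 1454 CPM (SD, n = 2) had a coefficient of variation of 23.9%.

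In Hox B, Mir196a-1 had 21 and 17 counts in replicates 1 and 2, or 14.1 CPM (8.72 to 21.5) and 8.38 CPM (4.88 to 13.4). This was the lowest member, with overlapping intervals and a mean of 11.2 ± 4.03 CPM. Mir10a, further along the cluster, had 7183 counts in replicate 1 and 9943 in replicate 2, or 4816 CPM (4706 to 4929) and 4902 CPM (4806 to 4999). Its mean was 4859 ± 60.5 CPM, and its coefficient of variation of 1.25% was the smallest among the members. In each library Mir10a exceeded Mir196a-1 within the cluster, 342-fold in replicate 1 (224 to 553) and 585-fold in replicate 2 (365 to 1004). Of these genes, Mir196a-1 alone has its mature sequence in another annotated miRNA gene. Its counts lack the reads that align to both, so these folds of Mir10a are upper limits. This takes each counted read as placed at its own locus.

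In Hox C, Mir196a-2 had 2273 and 2650 counts in replicates 1 and 2, or 1524 CPM (1462 to 1588) and 1306 CPM (1257 to 1357). Replicate 1 was again higher, without overlap of the intervals, and the mean was 1415 ± 154 CPM. Mir615 had 240 and 297 counts, or 161 CPM (141 to 183) in replicate 1 and 146 CPM (130 to 164) in replicate 2, which overlap. Its mean was 154 ± 10.3 CPM. Mir196a-2 exceeded Mir615 by 9.47-fold in replicate 1 (8.29 to 10.9) and 8.92-fold in replicate 2 (7.91 to 10.1), so the ratio between the Hox C genes differed by less than its counting error. The counts of Mir196a-2 lack the reads that also align to Mir196a-1, so these folds are lower limits. This takes each counted read as placed at its own locus.

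In Hox D, Mir10b had 37122 counts in replicate 1 and 45945 in replicate 2. These are 24892 CPM (24642 to 25143) and 22652 CPM (22447 to 22857), with a mean of 23772 ± 1584 CPM. By these counts, which leave out multi-mapped reads, Mir10b ranked 12 among all miRNA genes in both libraries and was the highest member in each.

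**Figure D2:**
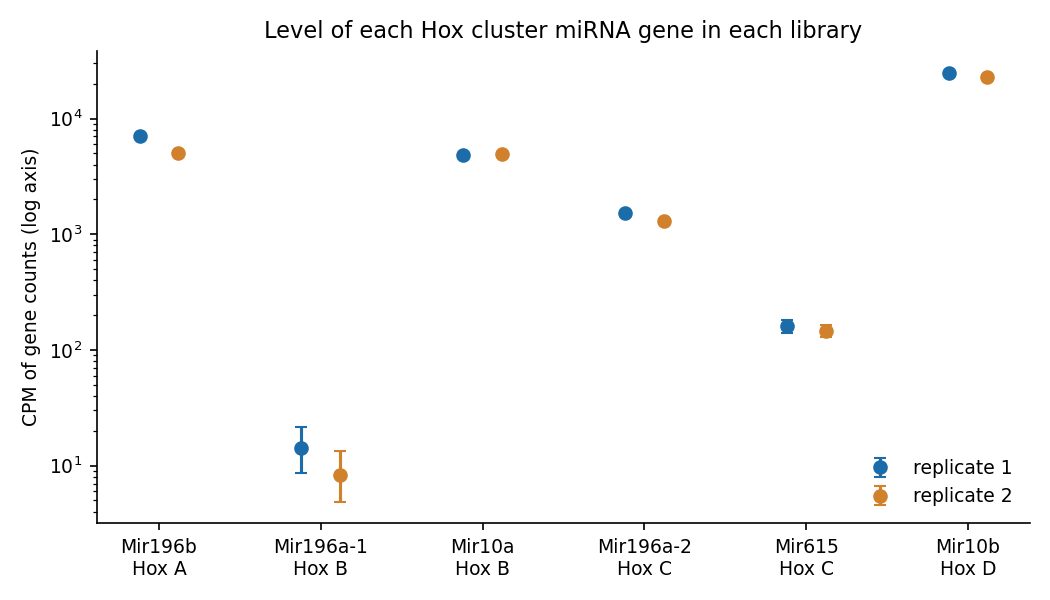
CPM of gene counts on a log axis for each of the 6 genes in Hox cluster order, with replicate 1 left of replicate 2 and bars for exact 95% intervals, which are smaller than the points for the 4 highest genes. Mir10b stood highest near 23772 CPM and Mir196a-1 lowest near 11.2 CPM.

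In descending order of mean level the genes ran Mir10b, Mir196b, Mir10a, Mir196a-2, Mir615 and Mir196a-1. The only neighbours in this order that did not differ by more than the SD of their ratio were Mir196b and Mir10a. Mir196b over Mir10a, a ratio chosen after its values were seen, was 1.48-fold in replicate 1 (1.43 to 1.52) and 1.03-fold in replicate 2 (1.00 to 1.06), a mean log2 ratio of 0.31 ± 0.37. Each of the other neighbouring pairs differed in 1 direction in both libraries by more than its SD. If no read was misplaced, the counts of Mir196a-1 and Mir196a-2, which lack any reads that align to both, are lower limits. Their CPM values are not, since multi-mapped reads are also missing from the total that CPM divides by.

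Between paralogs, counts favoured 1 gene of each family. Mir10b exceeded Mir10a by 5.17-fold in replicate 1 (5.04 to 5.30) and 4.62-fold in replicate 2 (4.52 to 4.72), a mean log2 ratio of 2.29 ± 0.11, and held 83.8% and 82.2% of miR-10 counts. This comparison is free of shared mature sequence within annotated miRNA genes. Mir196b exceeded Mir196a-2 by 4.67-fold in replicate 1 (4.46 to 4.89) and 3.88-fold in replicate 2 (3.71 to 4.05), with 82.2% and 79.4% of miR-196 counts. The miR-196a reads that align to both loci are missing from the Mir196a side, so these folds and shares of Mir196b are upper limits. The folds take each counted read as placed at its own locus. Mir196a-2 exceeded Mir196a-1 by 108-fold in replicate 1 (70.6 to 175) and 156-fold in replicate 2 (97.2 to 268), a mean log2 ratio of 7.02 ± 0.37. Since the last pair has 1 mature miRNA, unequal output of the loci and unequal placement of their reads cannot be told apart.

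By family, miR-10 genes held 77.1% of the members' counts in replicate 1 (76.8 to 77.5) and 80.9% in replicate 2 (80.6 to 81.1). MiR-196 genes held 22.5% (22.1 to 22.8) and 18.7% (18.4 to 19.0), and miR-615 held 0.418% and 0.430%. The miR-196 shares likewise lack those reads. By cluster, Hox A had 18.5% in replicate 1 and 14.9% in replicate 2, and Hox B 12.5% and 14.4%. Hox C had 4.37% and 4.26%, and Hox D 64.6% and 66.5%. The missing miR-196a reads belong to Hox B or C, so including them could only lower the Hox A and D shares. The Hox C intervals, 4.21 to 4.54 and 4.11 to 4.42, overlap, while those of Hox A, B and D do not. Mir10b over Mir196b was 3.50-fold in replicate 1 (3.42 to 3.57) and 4.47-fold in replicate 2 (4.38 to 4.57). Such ratios within a library do not depend on how the libraries are scaled.

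**Figure D3:**
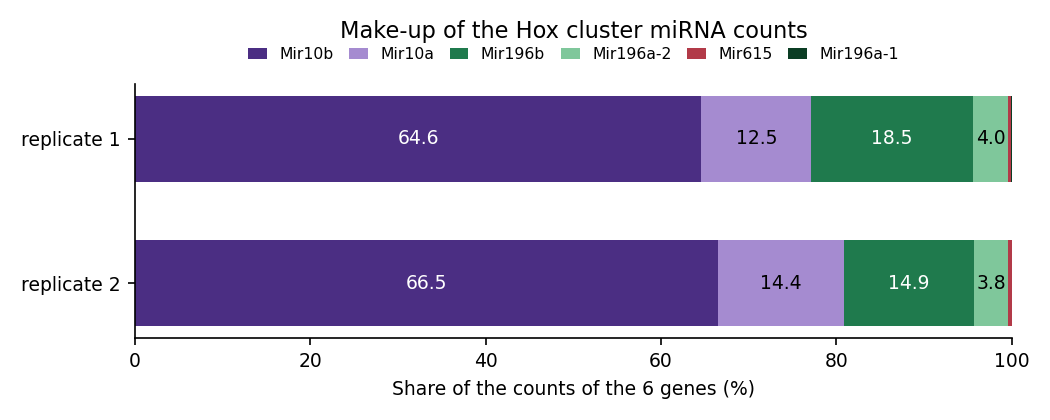
Share in percent of the 6 genes' counts held by each gene, one bar per library, coloured by gene; Mir196a-1 is too small to see. Mir196b took 18.5% in replicate 1 and 14.9% in replicate 2, and Mir10b took 64.6% and 66.5%. Reads that align to both Mir196a-1 and Mir196a-2 are missing from both bars.

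Differences between the libraries were tested over all 313 genes with at least 10 counts in sum (exact two-sided binomial test on trimmed mean of M values (TMM) library sizes, Benjamini-Hochberg adjusted). This test takes counting error as the only error. It called 3 of the 6 members, each of them higher in replicate 1, and left 3 uncalled. Over all genes tested 38.3% were called, 18.5% higher in replicate 1 and 19.8% lower, and with 6 members nothing particular to them is read from their count. The median log2 ratio of replicate 1 over replicate 2 was 0.17 over the members and -0.05 over all genes tested.

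Mir196b differed most among the called members, with a log2 ratio of 0.48 (0.44 to 0.52, exact binomial test adjusted p = 1.76e-126). Among the 179 genes that reached 100 counts in both libraries, 10 had a higher ratio and 27 a larger difference in either direction. Mir196a-2 followed at 0.21 (0.13 to 0.29, adjusted p = 1.41e-06) and Mir10b at 0.13 (0.11 to 0.15, adjusted p = 1.64e-34). These last differences are of common size: 96 of the 179 genes differed more than Mir196a-2 and 124 differed more than Mir10b. Mir615 at 0.13 (-0.13 to 0.38, adjusted p = 0.471) and Mir196a-1 at 0.74 (-0.25 to 1.75, adjusted p = 0.252) did not pass at their depth. Mir10a stood at -0.04 (-0.08 to 0.01, adjusted p = 0.202), and at 0.02 with DESeq2 size factors. Its interval excludes a difference as large as that of Mir196b by counting error alone. The interval leaves out the further spread between the libraries.

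With the spread between the libraries added to counting error, 0 of the members and 0 of all 313 genes passed, by edgeR's exact negative binomial test, which gave 15 genes with p under 0.05 before adjustment. The smallest adjusted p over all genes was 0.107, and that of every member was 1. The spread came from the same libraries, as a biological coefficient of variation of 18.0% over 267 genes, which weighs against passing any gene. By the exact binomial test, markers of other cells also differed between the libraries. The marker calls given here are all by that test, and none passed the negative binomial test. Smooth muscle and pericyte genes had a sum of 58854 CPM in replicate 1, against 78690 CPM in replicate 2, with 2 of 2 lower in replicate 1 and none at 0. Erythroid genes summed to 174 and 355 CPM, with 2 of 2 lower in replicate 1. The endothelial Mir126a was lower in replicate 1 at 78275 CPM, against 87525 CPM in replicate 2. Leukocyte genes summed to 1605 and 1431 CPM, with Mir150 higher in replicate 1 and Mir142 and Mir223 lower. Of the striated muscle genes, 8 of 9 had enough counts to be tested and 3 were higher and 2 lower in replicate 1. The part of these shifts in the members' differences was not tested.

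**Figure D4:**
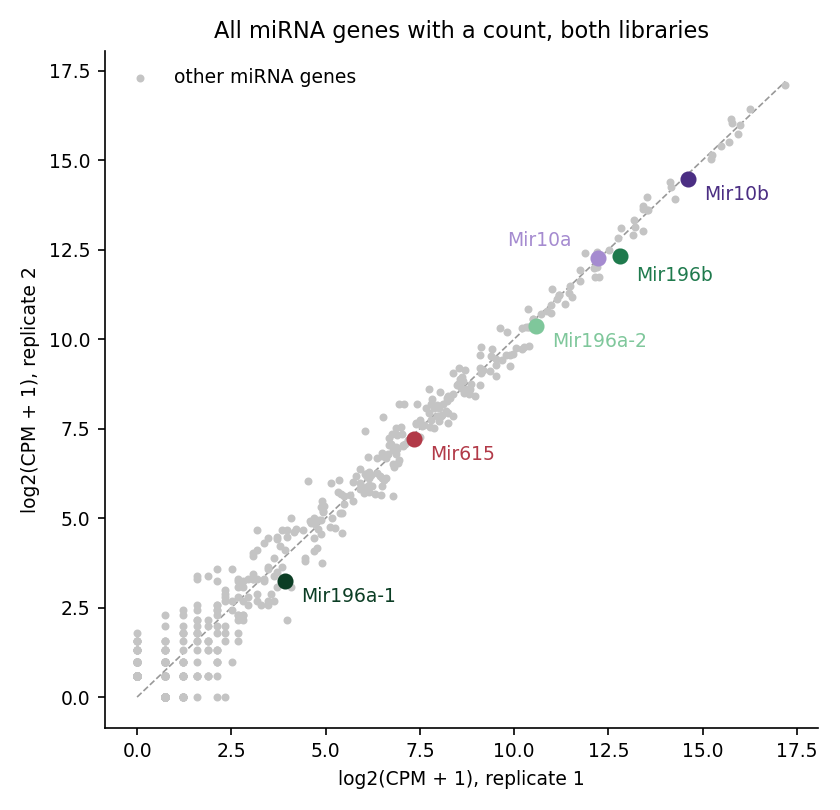
Log2(CPM + 1) in replicate 1 against replicate 2 for all 570 miRNA genes with a count, with the 6 Hox cluster genes coloured and the dashed line marking equal CPM. Mir10b, Mir196a-2, Mir615 and Mir10a lie close to the line while Mir196b, at 7121 CPM against 5064 CPM, and Mir196a-1, at 14.1 CPM against 8.38 CPM, lie on the replicate 1 side.

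The relatives of miR-10 outside the Hox clusters are miR-99, miR-100 and miR-125, whose genes lie in other miRNA clusters. The binomial test passed 4 of these 6 genes as higher in replicate 1 and left 2 uncalled, with a median log2 ratio of 0.19. Of all 313 genes tested, 18.5% were called higher in replicate 1. Among the 179 genes whose counts reached 100 in both replicates, 54 were called higher in replicate 1. Mir99a, at 26047 CPM in replicate 1 and 23467 CPM in replicate 2, was level with Mir10b and had a log2 ratio of 0.14. Mir100 had 9162 and 7716 CPM, Mir99b 4905 and 3436 CPM, and Mir125a 2024 and 1707 CPM. The ratio of Mir99b, 0.50 (0.46 to 0.55), was close to that of Mir196b. Mir125b-1 and Mir125b-2, which did not pass, had 219 and 99.9 CPM in replicate 1 and 212 and 110 CPM in replicate 2. Multi-mapped reads are in no gene row, and whether these paired loci lack reads that align to both was not analysed.

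**Figure D5:**
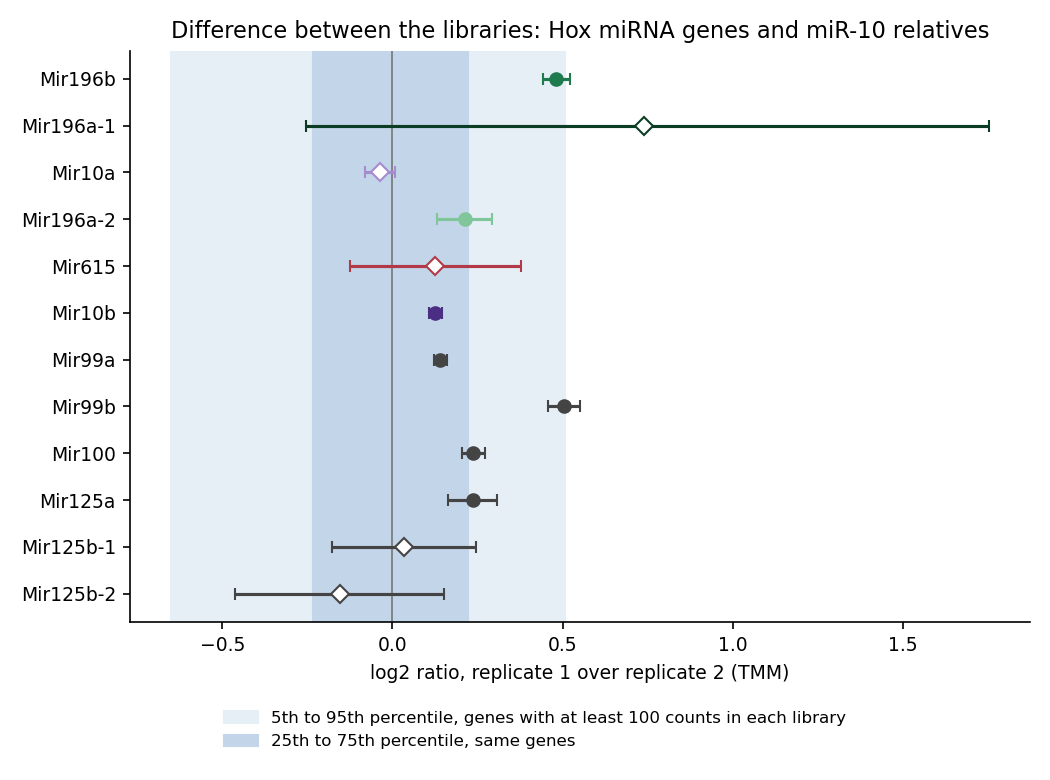
Log2 ratio of replicate 1 over replicate 2 after TMM with exact 95% intervals for the 6 Hox cluster genes and 6 relatives of miR-10; filled circles passed the exact binomial test and open diamonds did not. Bands give the spread of the 179 genes that reached 100 counts in both libraries, and Mir196b at 0.48 lies near the upper end of the wider band, which ends at 0.51.

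The genes nearest in level were found by the Euclidean distance of log2(CPM + 1) over the 2 libraries. Nearest to Mir10b were Mir99a, at a distance of 0.08, and Mir411. Mir196b was nearest to Mir191 (0.12) and Mir151, and Mir10a to Mir27b (0.18) and Mirlet7f-2. Mir196a-2 stood beside Mir93 (0.18) and Mir652, and Mir615 beside Mir30c-2 (0.11) and Mir671. Mir196a-1 was nearest to Mir29b-1 (0.24) and Mir449a. With 2 libraries this distance reflects only the level in each of them.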

How the data were processed

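Raw read counts per miRNA gene on mm10 with GENCODE M21 were taken as deposited, per the deposited descriptions of the files, with the aligner, trimming and mismatch handling not given in the sources used here. How reads from CAST alleles aligned was not analysed. Counts on the gene's own strand were used; all 6 members had the same counts without strand and 0 on the opposite strand. The 4 summary rows stayed out of totals, among them unaligned reads (8.11% and 5.99% in replicates 1 and 2) and reads outside miRNA genes (2.21% and 1.64%). All 2202 identifiers matched GENCODE M21.

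CPM was computed on gene counts and ratios on TMM library sizes (edgeR 4.0.16, R 4.3.3), with a threshold of 0.05 on the adjusted p. A single group gives no contrast for a quasi-likelihood test. Alternatives used DESeq2 1.42.0 size factors, total counts, no filter, the column without strand, all reads as denominator and each library alone. The counts of the libraries differed by more than read sampling alone gives (chi-square 21001, 312 degrees of freedom over genes), so they were not merged into 1 library; this does not show that they are separate animals. The binomial step was tested on data simulated with counting error alone, which lack the spread seen between these libraries. RefSeq held mature sequences of 6 members and hairpins of 5, by symbol; untranslated regions came from GENCODE M21 transcripts. Members, lists and the naming rule (the members, other miRNA genes within 20 kb of a Hox cluster, 6 relatives, the 2 nearest genes by level and cell type markers) were chosen with earlier results of these data known.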

Additional observations from a re-analysis of the deposited data

How the results depend on the processing

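The 3 calls among the members kept their direction and passed with DESeq2 size factors, total counts, no filter on low counts and the column without strand. The edgeR exact negative binomial test gave 0 members and 0 genes higher in replicate 1 and 0 genes lower, against 58 higher and 62 lower by the binomial test. Mir10a had a log2 ratio of 0.0154 under DESeq2 size factors and of -0.04 under TMM, neither past the threshold. Without regard to strand Mir10a passed, at -0.06 (exact binomial test adjusted p = 0.0352), so 1 member was lower in replicate 1; its adjusted p ranged from 0.0352 to 1 over the alternatives. The share of the members was 0.734% with all reads as denominator and 4.86% without strand, where gene counts summed to 1113672 in replicate 1 and 1517133 in replicate 2; the cause was not tested. With a single library, the share lay between 3.41 and 3.85%, the Hox A, B, C and D shares between 14.9 and 18.5%, 12.5 and 14.4%, 4.26 and 4.37%, and 64.6 and 66.5%, and the log2 ratios of Mir196b over Mir10a between 0.05 and 0.56. No paired analysis was possible because the design has 1 group. Depth limits Mir196a-1, with 21 and 17 counts.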

Other observations

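The 7 bases complementary to each seed were searched on the sense strand of the longest annotated 3′ untranslated region of every protein-coding gene, 21039 in all and 39 of them Hox genes, with median lengths of 960 and 966 bases. The miR-196 match ACTACCT was found in 9 Hox genes, or 23.1%, and in 6.10% of all genes. Only Hoxa7, with 4 matches, and Hoxc8, with 2, held it more than once. The long paired site of Hoxb8 is not such a match, since it has the wobble within the seed. The miR-10 match ACAGGGT was found in 4 Hox genes, or 10.3%, and in 12.5% of all genes. The miR-615-3p match GGCTCGG was found in Hoxb4 alone among the Hox genes, or 2.56%, and in 2.30% of all genes. Paralogous Hox genes share ancestry, so these counts are a description with no test, and no mRNA was measured.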
